A study of Caenorhabditis elegans with 10 samples.

Results

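The nep-1 mutant and the wild type of Caenorhabditis elegans were compared in adult worms, on 6 of the 10 Affymetrix arrays of a study that also profiled larvae of stage L3. The adult arrays were 3 of the mutant, whose nep-1 allele came from a chemical mutagenesis with EMS, and 3 of the Bristol wild type. Each array held RNA from whole bodies of worms grown on agar plates with the OP50 strain of Escherichia coli as food, and the age of the adults is not given in the sources used here. The titles call the arrays of a group biological replicates, but nothing says that they came from separate cultures, so every p-value measures only the spread between these arrays.

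The array names tie each mutant array to 1 wild-type array. Mutant replicate 2 and wild-type replicate 1 carry the letter A, mutant replicate 3 and wild-type replicate 2 carry the letter B, and mutant replicate 1 and wild-type replicate 3 carry no letter. They are called pair A, pair B and the unlettered pair here, and values are given in that order. The labels do not say what a letter marks. Levels are the authors' normalised log2 values, and a difference is the mutant level minus the wild-type level on the log2 scale, so that 1 unit is a doubling. In all, 22548 probe sets were compared. A probe set is a group of short oligonucleotides on the array that reads 1 transcript or a few related ones, and its level cannot be set against that of another probe set. The deposited tables give a gene for 152 of these probe sets, which belong to 145 genes, and each of them was put on a list by the authors for its calls in larvae or adults.

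The gene nep-1 encodes a neprilysin, a membrane-bound zinc metalloprotease whose family cleaves small peptides outside the cell. Mammalian neprilysins inactivate neuropeptides and other signalling peptides, and in C. elegans nep-1 is known for roles in the pharynx, the feeding organ, and in locomotion. Lists of neuropeptide, metabolic, cuticle and protease genes were among those examined.

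The mutated gene was checked before any other. The nep-1 probe set, 188537_s_at, had levels of 5.10, 5.42 and 5.05 in mutant adults, against 6.01, 6.85 and 7.32 in wild-type adults. Every mutant array lay below every wild-type array, with differences of -0.92, -1.43 and -2.27, the largest in the unlettered pair. The mean was 5.19 ± 0.20 in mutant adults and 6.73 ± 0.66 in wild-type adults (SD, n = 3 each), a mutant level of 0.344 times the wild-type level. The mean difference was -1.54 ± 0.29 (SE) with an adjusted p of 0.967 in limma's moderated test with the pair as a block, which did not pass the threshold of 0.05, and nep-1 stood at rank 5 of all probe sets by its p. An exact permutation of genotype within pairs, two-sided, gave p = 0.25, the smallest value that its 8 arrangements allow. Without the unlettered pair the difference was -1.17 ± 0.22, with an adjusted p of 0.0421. Whole-body RNA cannot tell fewer cells of a type from less RNA per cell.

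The software calls deposited by the authors listed nep-1 as decreased in all 3 pairs and in 7 of the 9 possible comparisons of a mutant with a wild-type array. It was called present on all 3 wild-type arrays and on 2 of the 3 mutant arrays, and marginal on the other one. The authors' scaled signals were 25.5, 57.7 and 93.6 in mutant adults, against 68.5, 123.2 and 304.2 in wild-type adults, lower in the mutant within each pair but overlapping between the groups. In L3 larvae, on arrays that the adult comparison did not use, the differences of nep-1 were -2.99 and -4.31. The array names of the mutant in pairs A and B and in 1 larval pair carry different numbers, and whether the adult and larval mutants are the same strain is not stated, which applies to every larval value given here. The position of the mutation relative to the probes is not given in the sources used here. No other neprilysin gene could be read, since nep-1 is the only one among the genes the tables name.

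The probe set most like nep-1 followed the same pattern. Probe set 173014_at, for which the tables give no gene number, had levels of 5.05, 5.81 and 5.74 in mutant adults, against 6.01, 7.38 and 8.05 in wild-type adults. Its mutant arrays also lay below all wild-type arrays, with differences of -0.96, -1.57 and -2.30 and a mean of -1.61 ± 0.28 (SE, adjusted p = 0.967 in limma). In larvae its differences were -3.68 and -4.96. Its Pearson correlation with nep-1 was 0.920 over the 10 arrays, the highest of any probe set, and 0.963 over the 6 adult arrays, where it ranked 6. These arrays share genotype, stage and pair, so the correlation is a description. A further unnamed probe set, 176865_at, had 6.13, 6.41 and 6.01 in mutant adults, against 7.09, 7.0 and 6.91 in wild-type adults. Its groups did not overlap, with a mean difference of -0.82 ± 0.17 (SE, adjusted p = 0.967 in limma), but it was called present on only 1 mutant array.

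**Figure D1:**
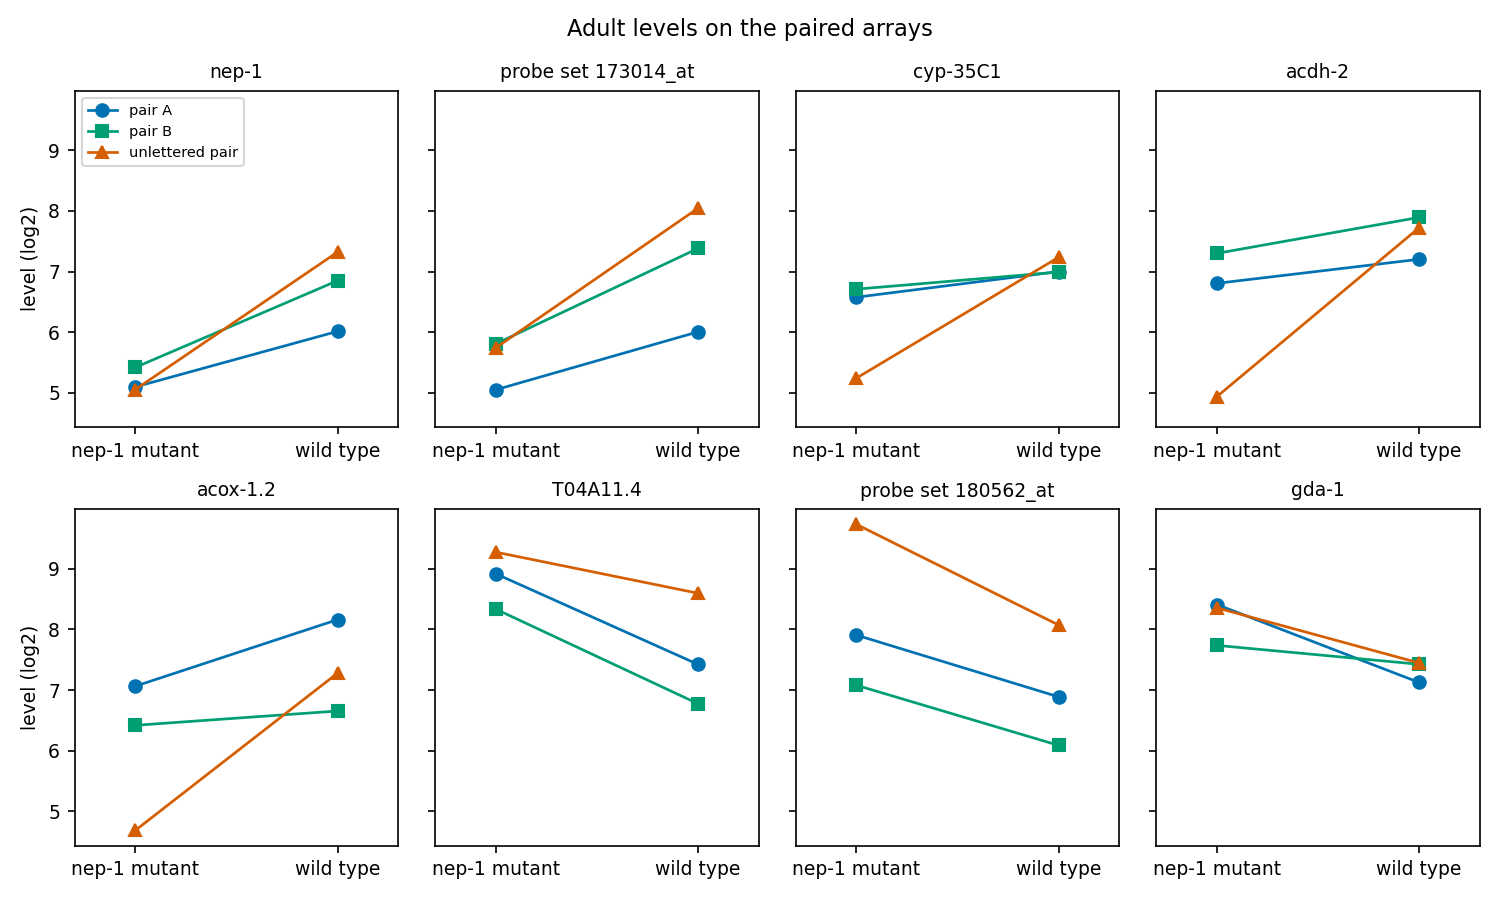
Levels (log2, vertical axis) of 8 probe sets in nep-1 mutant adults (left of each panel) and wild-type adults (right), with a line joining the arrays of a pair. The top row shows members lower in the mutant in all 3 pairs, with nep-1 at 5.05 to 5.42 in the mutant against 6.01 to 7.32 in the wild type, and acox-1.2 at the lower left is the fifth of these. The other 3 panels of the bottom row show members higher in the mutant in all pairs.

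Across the array, few differences agreed in size over all pairs. The mutant was higher in all 3 pairs at 2156 probe sets, 9.56% of those compared, and lower in all 3 at 2897, or 12.8%. A difference of at least 0.5 in every pair was seen at 24 probe sets, which is 0.106% of all. Of these, 17 were higher in the mutant (0.0754%) and 7 were lower (0.0310%), and at a difference of at least 1 in every pair none was left. When each array's median was subtracted, the counts were 11 higher and 13 lower in place of 17 and 7, although all 24 kept their direction in all pairs. On the authors' scaled signals 16 of the 17 and 5 of the 7 kept their direction in all pairs, and 10 and 3 of them still reached 0.5. The limit of 0.5 separates close values: the member just inside it had a smallest difference of 0.503, and the probe set just outside 0.492. The limma test called no probe set at an adjusted p under 0.05 (0%), while 408 had an unadjusted p under 0.05 (1.81%).

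The spread of the differences varied between the pairs. The SD of the differences over all probe sets was 0.417 in pair A, 0.291 in pair B and 0.681 in the unlettered pair. A difference of at least 1 was seen at 621 probe sets upward and 116 downward in pair A, at 128 and 32 in pair B, and at 1548 and 1104 in the unlettered pair. Read over all probe sets, whose values are not independent, the differences of pairs A and B had a correlation of 0.061, those of pair A and the unlettered pair of -0.076, and those of pair B and the unlettered pair of -0.127. The arrays of the unlettered pair also resembled the larval arrays more, with a mean correlation of levels with the larval arrays of 0.891 for the mutant and 0.903 for the wild type, against 0.830 to 0.837 for the remaining 4 adult arrays. The part of this resemblance in the results was not tested. The worms' stage could be checked on only 1 of 33 marker genes of tissues and stages, the collagen rol-6. For the others the tables give no probe set with a single gene name. The share of probe sets called present ran from 50.4% to 61.8%.

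**Figure D2:**
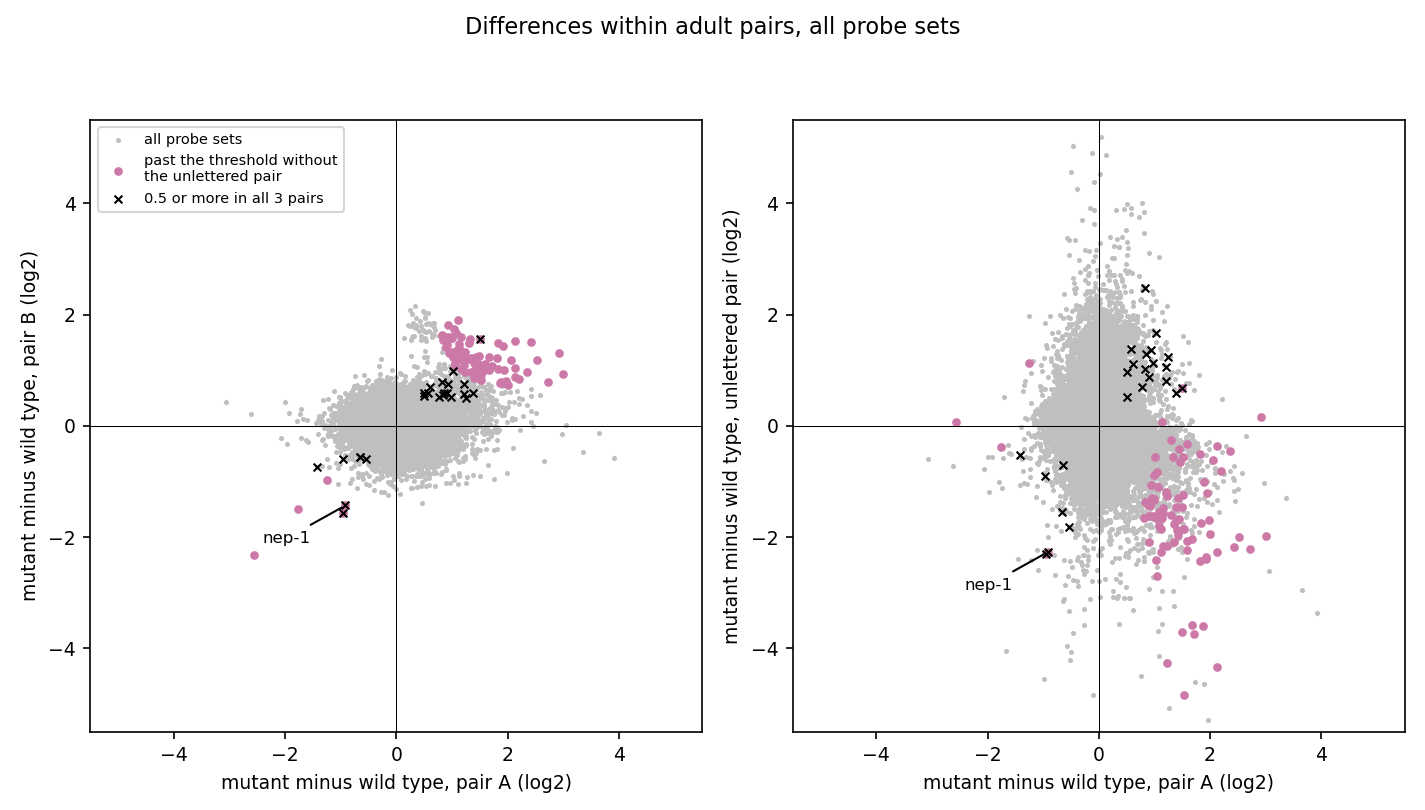
Mutant minus wild type (log2) within pairs for all 22548 probe sets, pair A on the horizontal axes against pair B (left) and against the unlettered pair (right). Crosses are the 24 probe sets with a difference of at least 0.5 in all pairs, and coloured points are the 87 past the adjusted p threshold when the unlettered pair is left out; 79 of the 82 that are higher in pairs A and B lie below 0 in the right panel.

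Of the 24 probe sets with at least 0.5 in every pair, 19 are on none of the authors' lists, as are 22352 of all 22548. Among the 24, 2 have a gene name, nep-1 and T04A11.4, as do 152 of all 22548. Of the 24, 19 were called present on all arrays of the genotype with the higher level, as were 10888 of all. Only 7 had groups that did not overlap, 4 higher and 3 lower in the mutant; over all probe sets 343 (1.52%) were higher and 440 (1.95%) lower without overlap. The mean differences of the 17 ran from 0.54 to 1.36 and those of the 7 from -1.61 to -0.64.

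The largest difference reached in every pair was at a probe set with no gene name, 180562_at, with levels of 7.91, 7.08 and 9.74 in mutant adults, against 6.89, 6.09 and 8.07 in wild-type adults. The difference was close to 1 in pairs A and B, at 1.02 and 0.99, and larger in the unlettered pair, at 1.66. Its groups overlapped because each pair sat at a level of its own, and its mean difference of 1.23 ± 0.20 (SE) had the smallest p of all probe sets, with an adjusted p of 0.967 in limma. Probe set 177254_at, also unnamed, followed with differences of 0.93, 0.75 and 1.36. Another unnamed one, 194060_s_at, had differences of 0.97, 0.52 and 1.12 and is on the authors' list of increases.

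Among named genes with a positive difference in all pairs, T04A11.4 had the largest smallest difference. The gene is named only through the authors' list of increases in adults, made from calls on these same arrays. Its levels were 8.92, 8.34 and 9.28 in mutant adults, against 7.42, 6.77 and 8.60 in wild-type adults. Pairs A and B gave nearly the same difference, 1.50 and 1.56, and the unlettered pair a smaller one of 0.68. The mean was 1.25 ± 0.23 (SE) with an adjusted p of 0.967 in limma, and 1.53 ± 0.21 with an adjusted p of 0.0160 without the unlettered pair. The larval pairs gave -0.52 and 1.95.

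Besides T04A11.4, 9 named genes were higher in the mutant in all pairs and called present on all mutant arrays. Among them, F01D5.5 and gda-1 are likewise named only through the authors' list of increases in adults. F01D5.5 had 8.39, 7.45 and 9.28 in mutant adults, against 6.18, 6.96 and 8.81 in wild-type adults, so that pair A alone gave a difference above 0.5, at 2.21. The gda-1 probe set had 8.41, 7.74 and 8.36 in mutant adults, against 7.12, 7.43 and 7.45 in wild-type adults, and was the only one of these 10 whose groups did not overlap, with differences of 1.29, 0.31 and 0.91. The mean difference of gda-1 was 0.84 ± 0.23 (SE, adjusted p = 0.967 in limma).

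R11F4.1, a glycerol kinase, which starts the use of glycerol in metabolism, had similar differences in all pairs, 0.35, 0.46 and 0.61, and was higher in larvae too, by 0.42 and 0.76. The obr-2 gene, of the oxysterol-binding protein family that carries lipids between membranes, had differences of 0.44, 0.24 and 0.77. F53A9.8 was higher mainly in the unlettered pair, at 0.39, 0.17 and 2.06. The remaining genes had small differences in at least 1 pair, among them C55A1.6, with 0.09, 0.38 and 0.48, and F26A3.4, with 0.05, 0.06 and 0.62. The glutathione S-transferase gene gst-6 gave 0.57, 0.05 and 0.12, and pitr-1, a phosphate transporter of the PiT family, gave 0.18, 0.04 and 0.07. With each array's median subtracted, F26A3.4 and pitr-1 no longer had the same sign in all 3 pairs, and with the authors' scaled signals C55A1.6, F53A9.8 and pitr-1 did not.

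**Figure D3:**
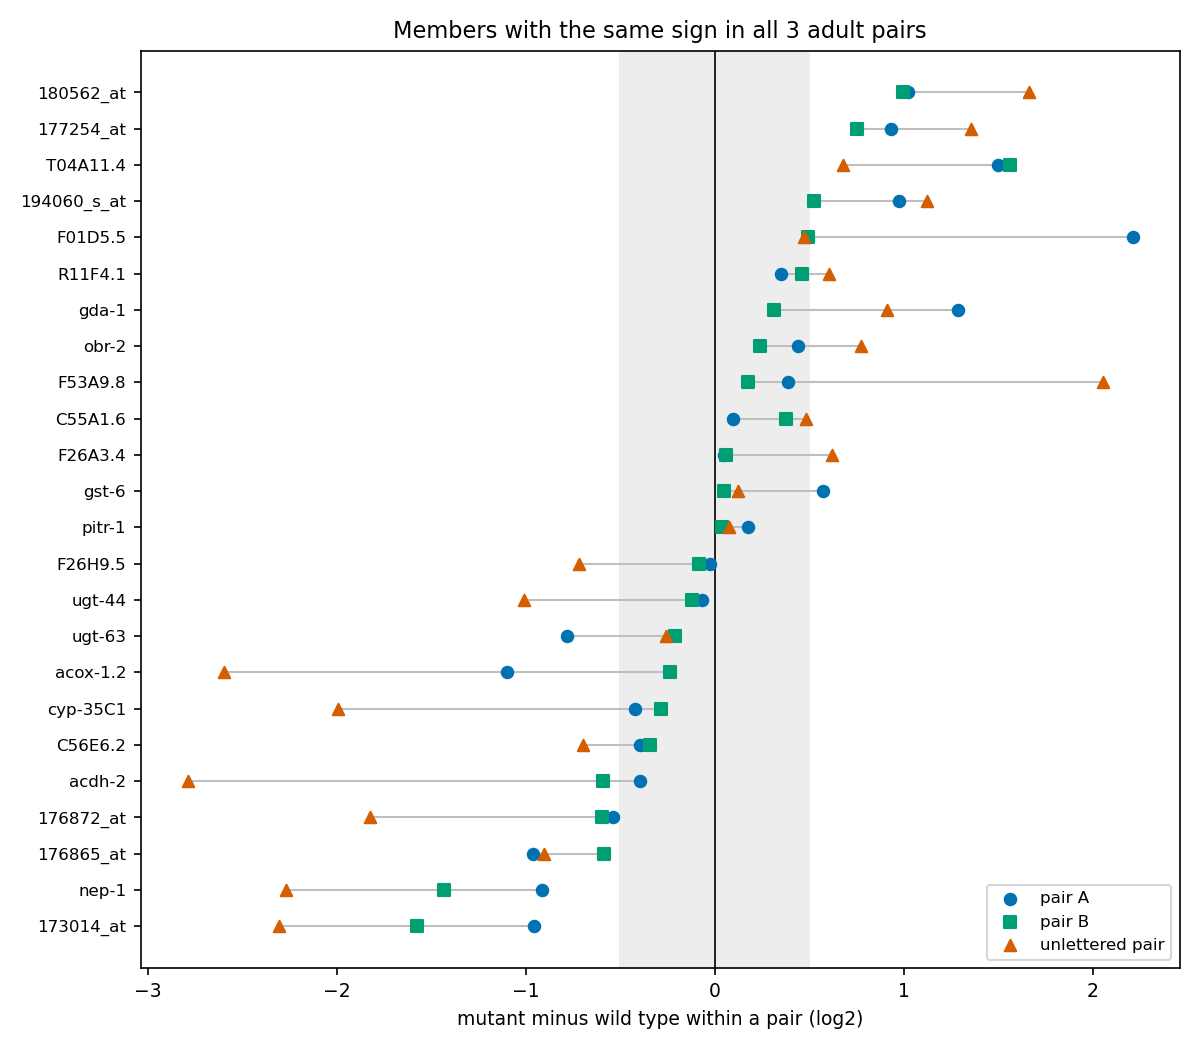
Mutant minus wild type (log2, horizontal axis) within each adult pair, for the described members with the same sign in all 3 pairs and a present call on all arrays of the higher genotype, ordered by their smallest difference. The grey band marks differences under 0.5 in size. Among named genes only nep-1 and T04A11.4 lie outside it in every pair, and most of the wide spreads come from the unlettered pair, as for acdh-2 at -2.79 and F53A9.8 at 2.06.

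Among named genes, 8 were lower in the mutant in all 3 pairs and present on all wild-type arrays. They include 2 of the 7 genes of fatty acid breakdown, 2 of the 3 glucuronosyltransferases and the 1 cytochrome P450. They include none of the 4 glutathione S-transferases and none of the 4 genes of fatty acid synthesis and transport. Over all 22548 probe sets, 1677 were likewise lower in all 3 pairs and present on all wild-type arrays. However, nep-1, acox-1.2, acdh-2 and cyp-35C1 are on the authors' list of decreases in adults, made from calls on these same arrays. For acdh-2 and cyp-35C1 that list is the only source of the name, so their falls are no separate observation. The peroxisomal acyl-CoA oxidase gene acox-1.2, whose enzyme family shortens fatty acid chains, also those of the ascaroside pheromones, had 7.06, 6.42 and 4.68 in mutant adults, against 8.16, 6.65 and 7.28 in wild-type adults. Its differences were -1.10, -0.24 and -2.60, the mutant array of pair A lay above the wild-type array of pair B, and the mean was -1.31 ± 0.46 (SE, adjusted p = 0.967 in limma). On the authors' scaled signals acox-1.2 did not agree in all pairs.

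The acyl-CoA dehydrogenase gene acdh-2, of the family that starts mitochondrial fatty acid breakdown, had 6.81, 7.30 and 4.93 in mutant adults, against 7.20, 7.89 and 7.72 in wild-type adults. The differences of acdh-2 were -0.40, -0.59 and -2.79, with the lowest level of all on the mutant array of the unlettered pair. The cytochrome P450 gene cyp-35C1, of a family induced by foreign compounds, had 6.58, 6.71 and 5.24 in mutant adults, against 7.0, 6.99 and 7.24 in wild-type adults. Its groups did not overlap, and its differences were -0.42, -0.28 and -2.0. Averaged over pairs, acdh-2 gave -1.26 ± 0.50 and cyp-35C1 gave -0.90 ± 0.37 (SE), each with an adjusted p of 0.967 in limma.

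The UDP-glucuronosyltransferases ugt-63 and ugt-44, which attach sugars to small fat-soluble molecules for export, had smaller differences. They were -0.78, -0.21 and -0.26 for ugt-63, and -0.07, -0.12 and -1.01 for ugt-44. The third named member of that family, ugt-6, was higher in pair A at 0.41 and lower in the others at -0.21 and -1.43. C56E6.2 was lower by similar amounts in all pairs, with -0.40, -0.35 and -0.70, and F26H9.5 was at -0.03, -0.08 and -0.72. All 8 were also lower in both larval pairs, as were 32.0% of all probe sets, but 142 of the named and unnamed probe sets on the authors' lists were listed for decreases in larvae, so the naming itself used those arrays. Of the 145 named genes, 13 were higher and 10 lower in all pairs, 15.9% of them, against 22.4% of all probe sets.

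The lists of lipid enzymes were mixed. Of 7 genes of fatty acid breakdown, 2 were lower in all pairs, acdh-2 and acox-1.2, both on the authors' list of decreases in adults. Of all probe sets, 12.8% were lower in all pairs. None was higher in all, and the median differences were 0.02, -0.16 and -1.26. The triglyceride lipase gene atgl-1 gave 0.02, -0.16 and 0.31, and the acyl-CoA synthetase gene acs-22 gave 0.52, -0.66 and 0.11. The breakdown list was matched by gene symbol, and the deposited tables title its members acs-22 and acs-20 as fatty acid transport proteins. Of 4 genes of fatty acid synthesis and transport none had the same sign in all pairs. The desaturase gene fat-7 gave 0.52, 0.04 and -2.29, the fatty acid synthase gene fasn-1 gave 0.83, -0.42 and 0.06, the elongase gene elo-3 gave -0.65, 0.13 and -0.26, and the fatty acid binding protein gene lbp-3 gave -0.42, 0.27 and 0.07. Of the 4 glutathione S-transferases only gst-6 agreed, while gst-10 gave -0.27, 0.16 and -2.66, gst-13 gave 0.05, 0.25 and -0.48, and gst-20 gave -0.50, 0.59 and -0.05. No gene of these lists passed the limma test.

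The authors' lists for adults hold 13 probe sets, called in at least 7 of the 9 comparisons of any mutant with any wild-type array, 4 as increased (0.0177% of all probe sets) and 9 as decreased (0.0399%). Those comparisons use each array 3 times and cross the pairs. Of the 13, 10 had the same sign within all 3 pairs. The exceptions, all on the list of decreases, were higher in the mutant in pair B. Y48E1B.8 gave -1.45, 0.04 and -2.40, R07E5.4 gave -1.21, 0.32 and -2.41, and Y51H7C.1 gave -0.57, 0.44 and -3.95. With each array's median subtracted, Y48E1B.8 was lower in all pairs, by under 0.01 in pair B. The unnamed probe set 176872_at is called decreased in 9 of 9 comparisons, and its differences were -0.54, -0.60 and -1.83. Counted within the pairs, the authors' software called an increase in 3 of 3 pairs at 17 probe sets (0.0754%) and a decrease at 11 (0.0488%), of which 3 and 3 are on the adult lists. All of them had that direction in the log2 values of all pairs, and 8 of the 17 and 4 of the 11 reached 0.5 in each.

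The genes of the cuticle, the collagen-rich coat that worms rebuild at each moult, separated the pairs. The collagen list was matched by gene symbol and holds 13 named genes. Of these 13 cuticle collagens, 12 were higher in the mutant in pairs A and B and lower in the unlettered pair. That is 92.3% of them, against 10.9% of all probe sets but 42.8% of all named genes. Among the 142 probe sets that the authors listed as decreased in larvae, which include every one of these collagens but col-142, it was 52.1%. The median differences of the 13 collagens were 0.68, 0.50 and -2.26, and none of them had the same sign in all pairs. The collagen gene dpy-5, needed for normal body length, had 9.93, 7.90 and 10.30 in mutant adults, against 7.50, 6.40 and 12.48 in wild-type adults. It was higher in the mutant by 2.42 and 1.51 in pairs A and B and lower by 2.18 in the unlettered pair, whose wild-type array held the highest level. The same order held for col-90, with 1.54, 0.50 and -2.72, for col-41, with 0.60, 0.71 and -1.25, and for rol-6, which shapes the body, with 0.20, 0.31 and -1.98. The exception, col-142, was at -0.01, 0.89 and -2.32. The gene ram-2, which the authors' deposited table also titles a collagen but which the symbols of the list do not cover, had the same order, with 1.29, 1.21 and -0.25.

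The median level of the 13 collagens was 8.25, 7.41 and 8.13 on the mutant arrays, against 7.48, 6.59 and 10.6 on the wild-type arrays of the same pairs. On the larval arrays it ran from 8.69 to 9.47 in the mutant and from 8.94 to 11.7 in the wild type. The wild-type array of the unlettered pair was thus the only adult array within the larval range. The median difference of the 13 was -0.87 and -1.09 in the larval pairs, negative as in the unlettered pair. All of the 13 but col-142 were named through the authors' list of decreases on these larval arrays. The sign of the larval medians is therefore no separate observation.

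Other lists linked to the cuticle held the same order of pairs in most of their few named genes. That order was also seen at 42.8% of all named genes and at 52.1% of the 142 probe sets listed as decreased in larvae. All named genes of these lists are on that larval list. Of the 4 genes of the abu and pqn families, which encode repeat-rich proteins of the lining of the pharynx, 3 were higher in pairs A and B and lower in the unlettered pair, with list medians of 1.10, 0.50 and -0.79. They were abu-8, with 2.20, 0.85 and -0.81, abu-14, with 1.14, 0.57 and -0.77, and abu-13, with 1.05, 0.43 and -1.41, while pqn-13 gave 0.25, -0.05 and -0.15. Of the 5 hedgehog-related and patched-related genes, whose products take part in shaping the outer matrix, 3 did so: grl-5 gave 0.60, 0.43 and -1.88, grl-7 gave 0.53, 0.30 and -1.70, and ptr-18 gave 0.82, 0.53 and -1.25. Of the others, grd-5 gave -0.46, 0.33 and -2.77, and ptr-6 gave 0.66, -0.52 and 0.21, higher in the mutant in the unlettered pair.

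**Figure D4:**
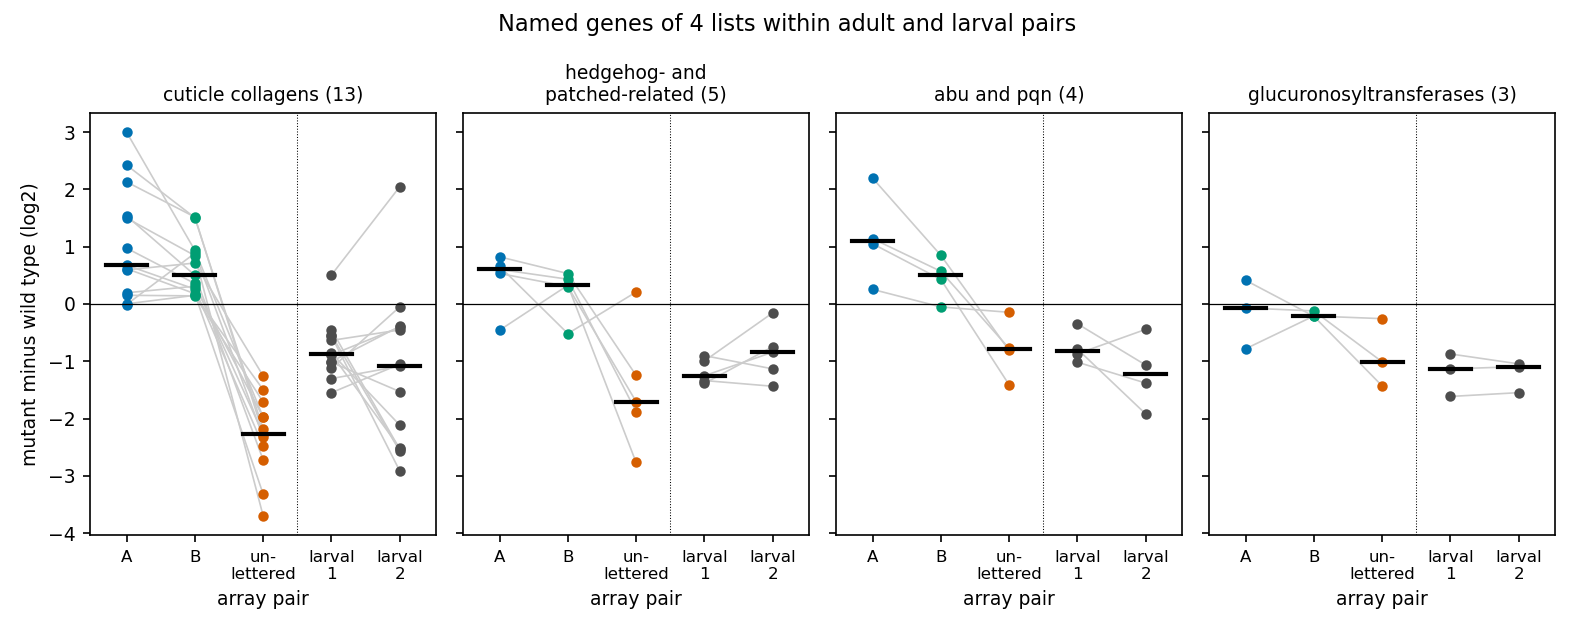
Mutant minus wild type (log2, vertical axis) of the named genes of 4 lists within the 3 adult pairs and, right of the dotted line, the 2 larval pairs. Points are genes, grey lines join a gene's values and black bars are medians. The collagen medians were 0.68 and 0.50 in pairs A and B and -2.26 in the unlettered pair, and those of the glucuronosyltransferases were -0.07, -0.21 and -1.01.

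Other lists held 1 named gene each. The neuropeptide-like gene nlp-8 had 6.46, 6.40 and 9.0 in mutant adults, against 6.60, 6.09 and 7.04 in wild-type adults, so that only the mutant array of the unlettered pair stood out. The lysozyme gene lys-2 gave 1.03, 0.51 and -0.11, the HSP70 family gene F44E5.5 gave 0.72, 0.40 and -0.28, and ketn-1, which encodes the muscle protein kettin, gave 1.10, -0.08 and 0.69. The astacin metalloprotease gene nas-6 was higher in all pairs, at 0.29, 0.15 and 0.20, but was called present on only 1 mutant and 1 wild-type array and did not agree on the authors' scaled signals. For 8 of the 22 lists, among them vitellogenins, sperm, germline and insulin pathway genes, the tables give no probe set with a single gene name. Probe sets that the deposited tables title major sperm protein match several genes each, so they were not read.

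Leaving out the unlettered pair changed the count of calls. On pairs A and B alone limma called 87 probe sets at an adjusted p under 0.05 (0.386%), 82 higher in the mutant (0.364%) and 5 lower (0.0222%). That fit rests on 2 arrays a genotype, with 1 residual degree of freedom for each probe set beside a prior shared over the array. The 82 had fitted differences of 1.07 to 2.11 and medians of 1.40 in pair A and 1.20 in pair B, against -1.62 in the unlettered pair. In the unlettered pair 79 of the 82 were lower in the mutant (51.3% of all probe sets were), 65 of them by at least 1 (4.9% of all). The 82 include 12 named genes, given here after their values were seen: the collagens col-109, dpy-5, col-48 and col-180, with ram-2, abu-8, T04A11.4, F41F3.3, R12E2.14, H23N18.5, H10E21.4 and bus-5. All but T04A11.4 are named only through the authors' list of decreases in larvae, and 69 of the 82 have no gene name. The named genes therefore do not show what kinds of genes the 82 hold. In that fit dpy-5 rose by 1.97 ± 0.24 (SE, adjusted p = 0.0111) and abu-8 by 1.52 ± 0.28 (adjusted p = 0.0369), and T04A11.4 is the only one of the 12 that was also higher in the unlettered pair. The 5 that were lower include nep-1 and 173014_at. In L3 larvae 34 of the 82 were lower in both pairs (32.0% of all probe sets were) and 18 higher in both (18.2% of all).

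Leaving out pair A or pair B in place of the unlettered pair gave no calls. The test's reach was limited: on simulated data with 200 of the 22548 probe sets changed, it recovered 0% of changes of 1 log2 unit. Of changes of 2 units it recovered 97%, with 219 calls of which 194 were changed probe sets. At 3 units 200 of 237 calls were changed ones. The simulated noise of a probe set had the same spread in all pairs. In the data the SD of the differences ran from 0.291 to 0.681 between pairs, so these shares may not hold for these arrays.

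The adult members were then read on the larval arrays, which their choice did not use. Of the 17 probe sets higher by at least 0.5 in all adult pairs, none was higher in both larval pairs (18.2% of all probe sets were), 4 were lower in both (32.0% of all), and 12 were lower in the first larval pair and higher in the second (33.0% of all). Their median larval differences were -0.37 and 0.39. Of the 7 lower ones, 2 were lower in both larval pairs, nep-1 and 173014_at, and 2 were higher in both. In the other direction, the 142 probe sets that the authors listed as decreased in larvae had median adult differences of 0.42 and 0.27 in pairs A and B and -0.94 in the unlettered pair, and 9 of them were lower in all 3 (12.8% of all probe sets were). In the unlettered pair 121 of the 142 were lower in the mutant (51.3% of all probe sets), in pair A 33 (54.5% of all) and in pair B 39 (49% of all). The 44 listed as increased in larvae had medians of 0.25, -0.09 and 0.38 in adults, and 6 were higher in all 3 pairs (9.56% of all).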

How the data were processed

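Total RNA was hybridised to 1-colour Affymetrix arrays after biotin labelling, per the labels' protocols. The log2 values are the authors' own, made with RMA per the submitters' processing notes, version not given in the sources used here. The scaled signal intensity, the detection calls and the pairwise change calls come from the authors' comparison tables, per the file headers, and 56 further columns of values per array were not used. Each log2 column correlated best with its own array's scaled signal (r of 0.961 to 0.981). After 77 control probe sets were left out, 22548 were fitted with limma 3.58.1 in R 4.3.3 (pair as a block, genotype, Benjamini-Hochberg adjustment over all), and the script was tested on simulated data. The number of arrays limits the precision.

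The pairs come from the array names in the labels. Deviations from group means correlated by 0.612, 0.647 and 0.623 within these pairs. They correlated by -0.652 to -0.222 between arrays with the same replicate number in their titles, and by -0.279 to 0.144 for the remaining combinations. Deviations from a group mean sum to 0, so positive values within pairs push the other values down.

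Text names were chosen by rule: nep-1, the authors' adult lists, up to 15 named genes a direction with the same sign in all pairs and present on the 3 arrays of the higher genotype, up to 4 genes a list, and 2 unnamed probe sets a direction, taken as the first by smallest pair difference, a reading settled after values were seen. Members and lists were chosen with earlier results of these data known. Of 196 listed probe sets, 37 have no gene number, 4 have several genes and 3 have a number not in the RefSeq table of assembly WBcel235 used for names. Alternatives covered the block, scaling, filters, variance settings and leaving out arrays or pairs.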

Additional observations from a re-analysis of the deposited data

Results flagged for a closer look

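For 3 named genes among the described members the mutant differed one way in all 3 adult pairs and the other way in both larval pairs. For 1 unnamed member the larval differences had the opposite sign but were close to 0. Of the 2156 probe sets higher in all adult pairs, 659 were lower in both larval pairs (30.6%, against 32.0% of all probe sets). Of the 2897 lower in all adult pairs, 549 were higher in both larval pairs (18.95%, against 18.2% of all). Such reversals were thus about as frequent as those larval directions over all probe sets. Each gap below is the adult difference minus the larval difference, from 1 fit over the 10 arrays with pairs as blocks, and none passed the adjusted threshold in limma (adjusted p = 0.998). The obr-2 gene was higher in adults by 0.44, 0.24 and 0.77 and lower in larvae by -0.90 and -1.15, a gap of 1.51 ± 0.27 (SE). The nas-6 gene was higher in adults by 0.29, 0.15 and 0.20 and lower in larvae by -0.78 and -1.06, a gap of 1.14, and it was called present on only 2 of the 6 adult arrays. The gst-6 gene had a gap of 0.77, with larval differences of -0.60 and -0.44. The unnamed probe set 176865_at was lower in adults by -0.96, -0.59 and -0.90, with groups that did not overlap, and its larval differences were 0.01 and 0.06, a gap of -0.85. Whether the adult and larval mutants are the same strain is not stated. The named genes among these were put on the authors' lists for their larval calls.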

How the results depend on the processing

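With only 3 pairs and small differences the adult comparison depends on which pair is read. The limma count of 0 calls was the same in all alternatives but 1, with and without the replicate block, under both other scalings and with the authors' scaled signals, and it ran from 0 to 87 when a pair or an array was left out, the 87 without the unlettered pair. Among the 54 described members, the number past the threshold then ran from 0 to 5, the 5 being nep-1, T04A11.4, abu-8, dpy-5 and the unnamed 173014_at, and over all 145 named genes it was 13 without the unlettered pair. The nep-1 difference kept its sign in all 21 alternatives (-1.90 to -1.16, adjusted p of 0.0421 to 1), and leaving out a pair or an array gave -1.90 to -1.17.

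The counts of probe sets at 0.5 or more in all pairs, 17 higher and 7 lower with 2 of them in the same direction in both larval pairs, stayed within 1.5 times under quantile normalisation and the filters on level and detection, except that the larval count was 4 with quantile normalisation. They were 11, 13 and 4 with medians subtracted and 198, 55 and 54 with scaled signals. Any size above 0 gave 2156, 2897 and 1367, and a limit of 1 gave 0 for each. Title numbers as pairs gave 4 and 4, and no replicate block, read as non-overlap by 0.5, gave 0, 2 and 1. Leaving out a pair gave 127 to 401, 59 to 189 and 45 to 111. The cause of these changes was not tested.

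Over 53 other members, 92 of 1106 alternative values changed sign, at 27 members with small or opposed differences, and none of these was past the threshold in the full fit. With quantile normalisation gst-20 was at -0.015, abu-13 at -0.0063, ptr-18 at -0.0060 and col-41 at -0.0069. With medians subtracted gst-20 was at -0.053, atgl-1 at -0.0095, abu-13 at -0.043, pqn-13 at -0.047, ptr-18 at -0.031 and col-41 at -0.047. With scaled signals ptr-18 was at -0.031 and nas-6 at -0.14. With array weights grl-7 was at 0.050, atgl-1 at -0.034, grl-5 at 0.11, col-90 at 0.29, lbp-3 at 0.041 and gst-13 at 0.073. Ranges over leaving out a pair or an array were as follows for F26A3.4 (-0.34 to 0.67), F44E5.5 (-1.12 to 1.96), F53A9.8 (-0.032 to 1.52), abu-13 (-0.71 to 1.37), abu-14 (-0.69 to 1.79), abu-8 (-0.24 to 2.20), acs-22 (-0.44 to 0.38), atgl-1 (-0.072 to 0.19) and col-41 (-0.90 to 1.49). They were as follows for col-90 (-1.31 to 1.54), dpy-5 (-0.62 to 2.43), elo-3 (-0.46 to 0.070), fasn-1 (-0.18 to 0.55), fat-7 (-1.32 to 0.49), grl-5 (-1.0 to 0.95), grl-7 (-1.04 to 0.96), gst-13 (-0.22 to 0.17) and gst-20 (-0.28 to 0.27). The remaining ranges were for gst-6 (-0.19 to 0.79), lbp-3 (-0.17 to 0.17), nas-6 (-0.33 to 0.76), nlp-8 (-0.15 to 1.15), pqn-13 (-0.72 to 0.84), ptr-18 (-0.65 to 1.28), rol-6 (-1.12 to 0.47), ugt-6 (-0.82 to 0.10) and ugt-63 (-0.96 to 0.045). Dropping the block to leave out single arrays adds the differences between pairs to these ranges.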
